A study of Mus musculus with 12 samples.

Results

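The NF-kB pathway was followed here through 10 genes chosen by name: the transcription factor subunits Nfkb1, Rela, Nfkb2 and Relb, the inhibitors Nfkbia and Nfkbie, and the kinase genes Chuk, Ikbkb, Ikbkg and Ikbke. All 10 were among the 756 genes of the deposited table, and all 10 passed the minimum mean of 20 normalized counts that left 695 genes for testing. Hippocampal RNA of 12 mice had been hybridised to the NanoString nCounter Mouse Neuroinflammation panel, which counts barcoded probes bound to transcripts without amplification. Each value is a probe count scaled by 1 factor per mouse, called a normalized count. The mice formed 3 groups of 4: vehicle-treated non-transgenic littermates (N-tg), vehicle-treated 5xFAD mice and TPPU-treated 5xFAD mice. TPPU, an inhibitor of soluble epoxide hydrolase, was given in the drinking water at 3 mg/kg from 2 months of age over 2.5 months. Its solvent, 1% polyethylene glycol 400, was the vehicle, so all 12 mice drank it. 5xFAD mice are a transgenic model of amyloid deposition whose transgenes are driven by the neuronal Thy1 promoter, and no non-transgenic mice received TPPU.

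NF-kB proteins are dimers held inactive in the cytoplasm by IkB inhibitors or by the unprocessed precursors of their own family. In the canonical arm, signals from TNF, IL-1 and Toll-like receptors activate the kinase complex of IKK-alpha (Chuk), IKK-beta (Ikbkb) and the scaffold NEMO (Ikbkg), IkB is degraded and p50 (from Nfkb1) with p65 (Rela) enters the nucleus. In the non-canonical arm, receptors such as that for lymphotoxin stabilise the kinase NIK, IKK-alpha phosphorylates the Nfkb2 product p100, and the resulting p52 acts with RelB. The genes of several members, among them Nfkbia, Nfkbie and Nfkb2, are themselves NF-kB targets, which makes their transcripts a common readout of feedback. In the brain these proteins are found in neurons and glia, and in microglia they drive cytokine and chemokine genes. Most of this regulation acts on proteins, which transcript counts do not measure.

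Totals of the whole numbers behind the values, taken as probe counts, ran from 1050334 to 1314362 per mouse. The labels describe male mice, but the Y-linked Uty was at 366 to 518 normalized counts in 6 mice (2 per group) and at 15.2 to 33.5 in the rest, and Kdm5d split the same mice, at 306 to 369 and 14.2 to 22.8. Ttr, the choroid plexus transcript for transthyretin, stood at 16461 in N-tg mouse 4 and at 4270 in 5xFAD vehicle mouse 1, and at 77.1 to 284 elsewhere. Defining markers of neurons, oligodendrocytes, astrocytes and microglia were present in every mouse. The scaling factors were 0.871 to 0.993 in N-tg, 0.946 to 1.10 in 5xFAD vehicle and 1.03 to 1.09 in TPPU mice. On this scale the median log2 change of all 695 genes was 0.13 from N-tg to 5xFAD vehicle and -0.12 from 5xFAD vehicle to TPPU, and with each array centred on its own median it was -0.15 and 0.08. The members' changes should be set against these medians.

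Between the genotypes, none of the 10 genes was called by limma at an adjusted p under 0.05, while 130 of 695 genes were, all higher in 5xFAD vehicle mice, a background of 18.7%. At an unadjusted p under 0.05, 1 member, Ikbke, stood beside a background of 29.1%. In 2 members, Nfkb1 and Ikbke, all 4 5xFAD vehicle mice lay above all 4 N-tg mice, a pattern found in 21.6% of all tested genes, and in 0 members did they lie below, against 0.144%. The shares of members were thus not above those of the panel. The median log2 change of the members was 0.05, with 6 of 10 above 0, beside a median of 0.13 and 72.2% above 0 over all tested genes. With voom weights on the whole numbers behind the values, taken as probe counts, 0 members were called as well, in this and in the other 2 comparisons.

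Between TPPU and vehicle in 5xFAD mice, 0 of 695 genes and 0 of 10 members passed the adjusted threshold in limma, a background of 0%. That background depended on single mice. Without TPPU mouse 3, 39 genes were called, all lower with TPPU and no member among them. At an unadjusted p under 0.05 there were 126 genes, 18.1% of those tested, of which 119 were lower with TPPU, and among them 2 members, Nfkb1 and Ikbke. The TPPU mice lay fully below the 5xFAD vehicle mice in 1 member, Ikbke, and in 4.32% of all genes, and fully above in 0 members and 0.576% of genes. The estimates of 9 of 10 members lay below 0, all but Relb, with a median of -0.22. Over all genes 70.4% lay below 0 and the median was -0.12. The genotype and TPPU comparisons share the 5xFAD vehicle mice, so an estimate above 0 in one and below 0 in the other is not independent evidence of a return.

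Between TPPU-treated 5xFAD and N-tg mice, 0 of 695 genes and 0 members were called (0%), and at an unadjusted p under 0.05 the counts were 102 genes (14.7%) and 0 members. Without TPPU mouse 2, 59 genes were called higher and 1 lower, with no member among them. Chuk alone among the members had all TPPU mice below all N-tg mice, as 0.863% of genes did. No member had them all above, as 6.19% of genes did. The median log2 change of the members was -0.09, beside 0.06 over all tested genes.

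**Figure D1:**
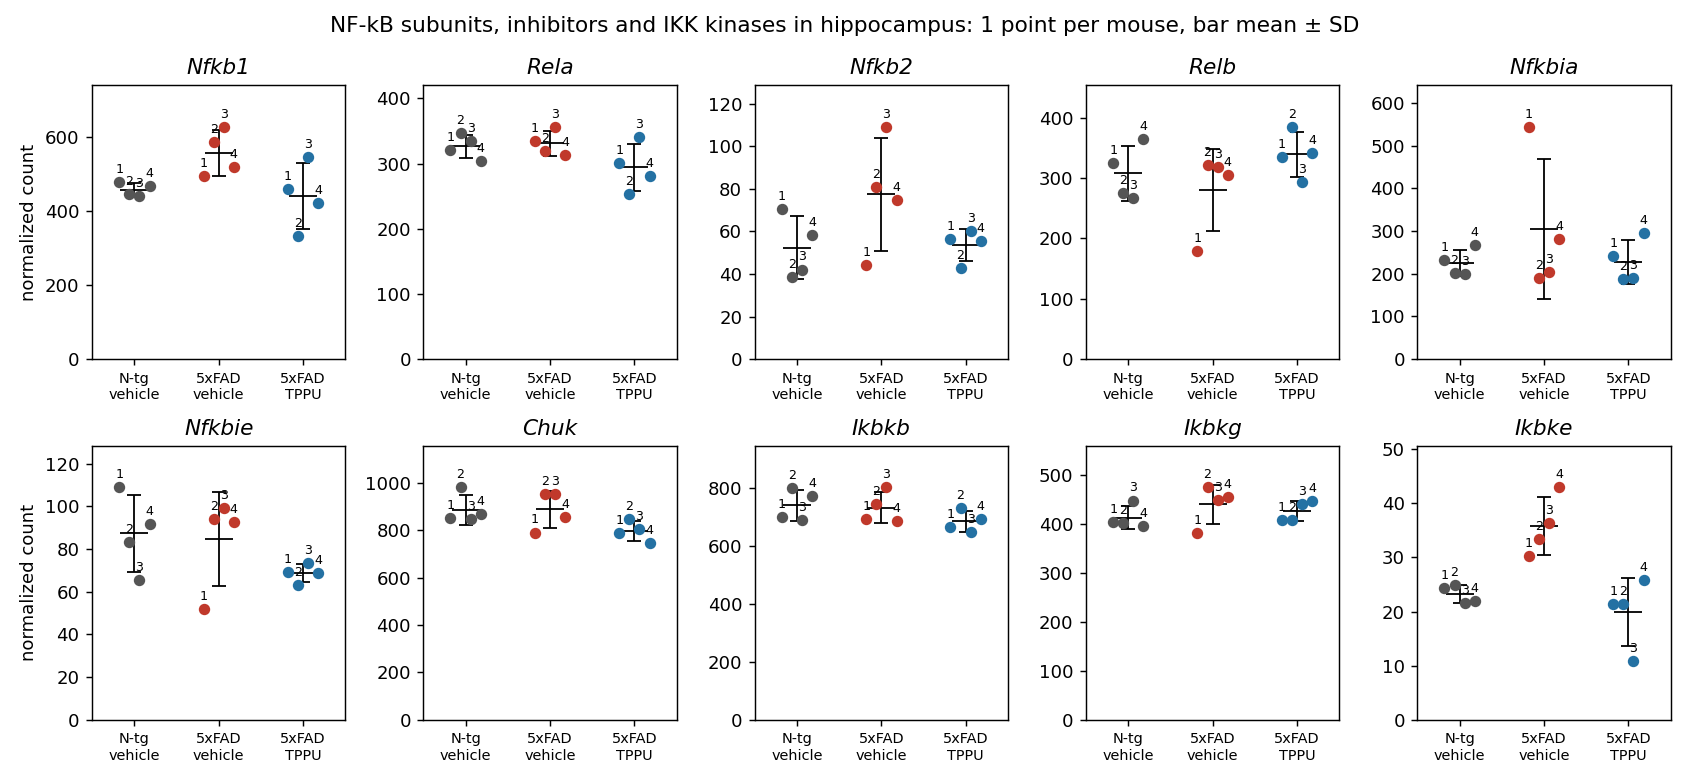
Normalized counts (vertical axes, linear from 0) of the 10 genes in hippocampus, 1 point per mouse with its number, and mean ± SD of 4 mice per group. Ikbke of 5xFAD vehicle mice lies at 30.3 to 42.9, above both other groups. 5xFAD vehicle mouse 1 is the highest point for Nfkbia and the lowest of its group for Nfkb1, Nfkb2, Relb, Nfkbie, Chuk, Ikbkg and Ikbke.

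**Figure D2:**
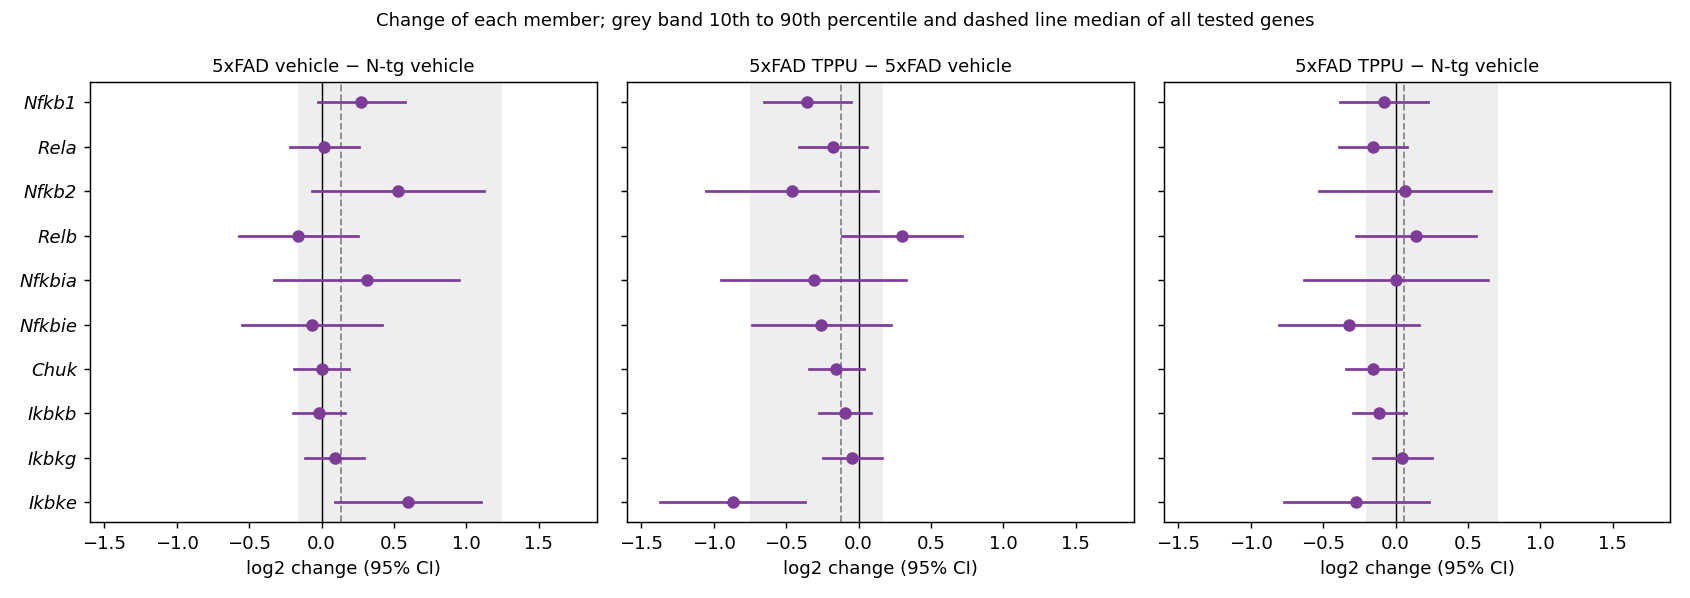
Log2 change of each of the 10 genes (points) with its 95% confidence interval (lines) by limma in the 3 comparisons, over a grey band from the 10th to the 90th percentile of all 695 tested genes and a dashed line at their median. The interval of Ikbke excludes 0 in the genotype and the TPPU comparison and that of Nfkb1 in the TPPU comparison, but 0 of 10 genes passed the adjusted threshold, and the estimate of Nfkb1 between the genotypes turns to -0.0084 under median centring.

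The canonical subunits are encoded by Nfkb1 (chr3:135584655-135691969 in GRCm38.p6, RefSeq), the p105 precursor of p50, and Rela (chr19:5637442-5648134), the p65 subunit that carries the transactivation domain. Nfkb1 stood at 479, 446, 443 and 469 normalized counts in N-tg mice 1 to 4, at 496, 587, 629 and 519 in 5xFAD vehicle mice and at 461, 334, 547 and 423 in TPPU mice. The 5xFAD vehicle mice lay above all N-tg mice, and the TPPU mice spread over and below both. The means were 459 ± 17.7, 558 ± 61.1 and 441 ± 88.3 (SD, n = 4 each). The log2 change was 0.28 (SE 0.14) between the genotypes, with an adjusted p of 0.217 by limma. It was -0.0084 after median centring and -0.0075 after quantile normalization, so its direction depended on the scale. With TPPU the change was -0.35 (SE 0.14), unadjusted p = 0.0259 and adjusted p = 0.217 by limma, and its estimate stayed below 0 in every alternative fit run, from -0.46 to -0.15. Rela stood at 321, 346, 334 and 304 in N-tg mice, at 335, 319, 356 and 313 in 5xFAD vehicle mice and at 302, 254, 340 and 281 in TPPU mice. The 3 groups overlapped. Between the genotypes its fold was 1.01 with a 95% interval of 0.860 to 1.19, and its log2 change was -0.26 after median centring. With TPPU its log2 change was -0.18 (SE 0.11, adjusted p = 0.413 by limma) and 0.026 after median centring.

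Nfkb2 (chr19:46300994-46312400), whose product p100 is both an inhibitor and the precursor of p52, stood at 70.6, 38.7, 42.1 and 58.2 in N-tg mice. In 5xFAD vehicle mice it stood at 44.4, 81.1, 109 and 74.9, and in TPPU mice at 56.5, 42.7, 60.2 and 55.6. Mice 2 to 4 of the 5xFAD vehicle group lay above every other mouse, and mouse 1 lay within the N-tg range. The means were 52.4 ± 14.8, 77.4 ± 26.6 and 53.7 ± 7.62 (SD, n = 4 each). The log2 change between the genotypes was 0.53 (SE 0.27, adjusted p = 0.227 by limma). It was 0.77 and passed the threshold without 5xFAD vehicle mouse 1 (adjusted p = 0.0409), 0.83 and did not pass without both mice with high Ttr (adjusted p = 0.0555), and -0.16 after quantile normalization. With TPPU the log2 change was -0.46 (SE 0.27, adjusted p = 0.388).

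Relb (chr7:19606217-19629438) encodes the partner of p52. Its normalized counts were 326, 276, 267 and 365 in N-tg, 180, 321, 318 and 305 in 5xFAD vehicle and 336, 385, 294 and 342 in TPPU mice. Mouse 1 of the 5xFAD vehicle group was the lowest of all 12, and the other 11 lay between 267 and 385. The log2 change was -0.16 (SE 0.19, adjusted p = 0.643 by limma) between the genotypes and 0.30 (SE 0.19, adjusted p = 0.413) with TPPU. Without 5xFAD vehicle mouse 1 these became 0.042 and 0.10. After quantile normalization Relb was called lower between the genotypes (-0.56, adjusted p = 0.0466).

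Setting the subunits of an arm against each other within a mouse removes the scaling factor. The log2 difference of Nfkb2 minus Relb, a pairing singled out after the values were seen and therefore given without a test, is taken from its N-tg mean. It was 0.37, -0.24, -0.072 and -0.062 in N-tg mice, 0.57, 0.59, 1.03 and 0.55 in 5xFAD vehicle mice and 0.014, -0.58, 0.29 and -0.035 in TPPU mice. Each 5xFAD vehicle mouse lay above all 8 others, mouse 1 included, in which both genes were the lowest of the group. How many other pairs of genes separate the groups this way was not counted. The same difference for Nfkb1 and Rela overlapped between the groups. As arms, the mean log2 difference from the N-tg mean ran from 0.060 to 0.29 for Nfkb1 and Rela in 5xFAD vehicle mice, against -0.034 to 0.022 in N-tg and -0.41 to 0.16 in TPPU mice. For Nfkb2 and Relb together it ran from -0.48 to 0.57 in 5xFAD vehicle mice, overlapping N-tg mice at -0.27 to 0.28 and TPPU mice at 0.042 to 0.14. The gap between the genotypes for the mean of Nfkb1 and Rela is on the deposited scale. Of the 2 genes only Nfkb1 separated the genotypes there, with a log2 change of 0.28, beside 0.019 for Rela, whose ranges overlapped. After median centring their genotype changes were -0.0084 and -0.26. Of single tested genes 21.6% had all 5xFAD vehicle mice above all N-tg mice, and no share was counted for means of 2 genes. The difference between the arms, non-canonical minus canonical, ran from -0.29 to 0.26 in N-tg, -0.55 to 0.28 in 5xFAD vehicle and -0.066 to 0.45 in TPPU mice. The 3 ranges overlapped, and no test was run. As values taken from the N-tg mean, they cannot show whether the arms differ within N-tg mice. The non-canonical mean also joins genotype changes of opposite direction, 0.53 for Nfkb2 and -0.16 for Relb.

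**Figure D3:**
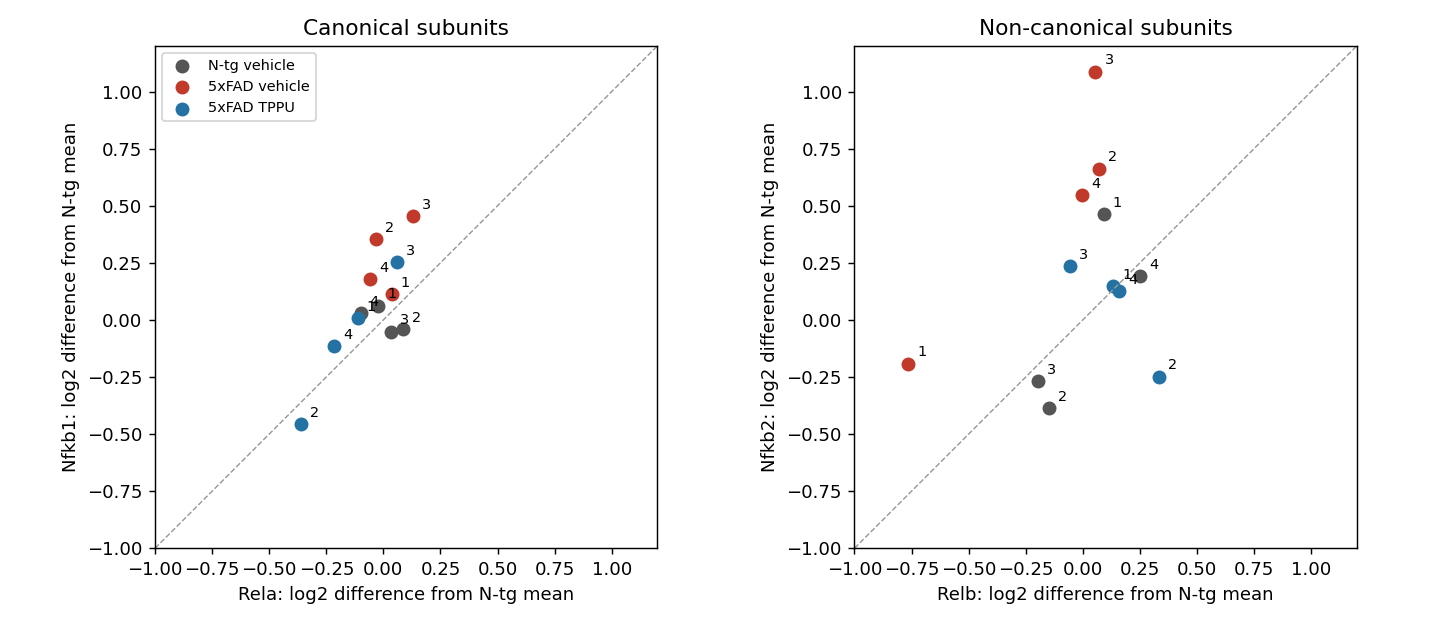
Log2 difference from the N-tg mean of Nfkb1 against Rela (left) and of Nfkb2 against Relb (right), 1 point per mouse with its number, and a dashed line where both differences are equal. On the right the 4 5xFAD vehicle mice lie 0.55 to 1.03 above the line, farther than the N-tg mice (-0.24 to 0.37) and the TPPU mice (-0.58 to 0.29). That pairing was singled out after the values were seen and was not tested. On the left the distances of the groups from the line overlap.

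The inhibitor genes are Nfkbia (chr12:55489409-55492647), which encodes IkB-alpha, and Nfkbie (chr17:45555700-45563169), which encodes IkB-epsilon. RefSeq promoter windows of GRCm38.p6, from 250 bases before to 50 after a start site, were at hand for 7 of the 10 genes. No window was used for Nfkb1, Relb and Ikbkb. Those of both inhibitors, of Nfkb2 at the first of its 3 listed start sites, which lies inside the gene's annotated span, and of Ikbke are shown, 5′ to 3′ on the gene's strand, because the first 3 genes held a stretch matching the kappa-B consensus, in capitals, and Ikbke had the smallest p of the members in both comparisons with 5xFAD vehicle mice and held none.
Nfkbia, chr12:55492598-55492897, minus strand: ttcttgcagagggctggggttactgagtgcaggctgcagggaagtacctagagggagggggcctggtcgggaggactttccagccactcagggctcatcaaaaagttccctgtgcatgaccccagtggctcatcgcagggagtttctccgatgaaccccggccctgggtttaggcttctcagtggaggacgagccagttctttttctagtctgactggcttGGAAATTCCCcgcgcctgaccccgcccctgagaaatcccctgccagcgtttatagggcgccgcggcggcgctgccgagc
Nfkbie, chr17:45555450-45555749, plus strand: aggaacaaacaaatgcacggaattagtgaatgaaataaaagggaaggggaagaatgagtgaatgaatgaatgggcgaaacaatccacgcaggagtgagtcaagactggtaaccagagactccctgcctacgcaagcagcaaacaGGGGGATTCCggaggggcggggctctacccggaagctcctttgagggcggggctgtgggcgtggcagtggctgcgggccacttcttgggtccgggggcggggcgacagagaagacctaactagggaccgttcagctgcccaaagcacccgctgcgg
Nfkb2, chr19:46304487-46304786, plus strand: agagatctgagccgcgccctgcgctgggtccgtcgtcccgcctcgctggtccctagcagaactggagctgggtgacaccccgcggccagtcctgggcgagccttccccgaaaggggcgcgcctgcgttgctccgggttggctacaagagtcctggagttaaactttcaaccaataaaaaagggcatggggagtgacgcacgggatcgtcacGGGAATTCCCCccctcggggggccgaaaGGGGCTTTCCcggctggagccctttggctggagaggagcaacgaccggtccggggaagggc
Ikbke, chr1:131279514-131279813, minus strand: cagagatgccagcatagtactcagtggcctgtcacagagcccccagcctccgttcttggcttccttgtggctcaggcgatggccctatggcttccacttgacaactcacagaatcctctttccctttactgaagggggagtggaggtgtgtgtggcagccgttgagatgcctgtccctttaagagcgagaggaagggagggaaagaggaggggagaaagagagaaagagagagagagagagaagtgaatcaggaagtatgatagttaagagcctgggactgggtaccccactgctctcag

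The stretch in Nfkbia began 29 bases upstream of the start site and that in Nfkbie 106 bases upstream, while the Nfkb2 window held stretches beginning 39 and 11 bases upstream. The kappa-B consensus was searched on both strands as GGG, a purine, any base, A or T, a pair of pyrimidines and CC. It was found in 3 of the 7 members with a window and in 5.14% of all genes with one. The looser motif GGGNNNNNCC, which contains the consensus, matched on either strand in 6 of 7 members and in 53.5% of all genes. A match describes letters in the window and is no evidence of binding in these mice.

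Nfkbia stood at 232, 202, 200 and 266 normalized counts in N-tg mice, at 545, 190, 204 and 282 in 5xFAD vehicle mice and at 241, 187, 189 and 295 in TPPU mice. The value of 545 in 5xFAD vehicle mouse 1 stood alone, and the other 11 mice lay between 187 and 295. The means were 225 ± 31.0, 305 ± 165 and 228 ± 51.4 (SD, n = 4 each), and the log2 change between the genotypes was 0.31 (SE 0.29, adjusted p = 0.535 by limma). Without mouse 1 it was -0.0099, and the change with TPPU moved from -0.31 to 0.013. Quantile normalization also turned the genotype change, to -0.12.

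Nfkbie stood at 109, 83.4, 65.4 and 91.6 in N-tg, at 52.0, 94.3, 99.3 and 92.8 in 5xFAD vehicle and at 69.3, 63.0, 73.3 and 69.0 in TPPU mice. The same mouse 1 was the lowest of all 12 for this inhibitor while it was the highest for Nfkbia. TPPU mice lay close together, between the 52.0 of that mouse and the 92.8 of the next 5xFAD vehicle mouse. The log2 change was -0.065 (SE 0.22, adjusted p = 0.887 by limma) between the genotypes and 0.15 without mouse 1, and -0.80 with a call after quantile normalization (adjusted p = 0.00739). With TPPU it was -0.26 (SE 0.22, adjusted p = 0.554), and -0.47 without mouse 1. For both inhibitors together the mean log2 difference from N-tg ran from -0.27 to 0.20 in N-tg, -0.051 to 0.28 in 5xFAD vehicle and -0.35 to 0.044 in TPPU mice. The groups overlapped, and the inhibitors went opposite ways in mouse 1. Mouse 1 is 1 of the pair with high Ttr. The other, N-tg mouse 4, was at 266 for Nfkbia, the highest of its group, and at 91.6 for Nfkbie, inside the range of its group. The part of choroid plexus RNA in these values was not tested.

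The core kinase genes varied little, with coefficients of variation of 4.91% to 9.15% within groups. Chuk (chr19:44073334-44107505), whose product acts in both arms, stood at 851, 981, 848 and 867 normalized counts in N-tg, 791, 951, 955 and 855 in 5xFAD vehicle and 787, 846, 806 and 747 in TPPU mice. The N-tg and 5xFAD vehicle ranges overlapped, with a fold between them of 1.00 and a 95% interval of 0.878 to 1.14. All TPPU mice lay below all N-tg mice, with 846 and 848 as the closest pair. The log2 change of that comparison was -0.15 (SE 0.086, adjusted p = 0.479 by limma), and that from 5xFAD vehicle to TPPU was also -0.15 (SE 0.086, adjusted p = 0.369). The latter turned to 0.049 after median centring and 0.0081 after quantile normalization.

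Ikbkb (chr8:22659205-22706589), the main catalytic kinase of the canonical arm, stood at 701, 799, 692 and 773 in N-tg, at 693, 746, 802 and 687 in 5xFAD vehicle and at 667, 731, 650 and 693 in TPPU mice. Its fold between the genotypes was 0.988 with a 95% interval of 0.870 to 1.12, and with TPPU 0.937 (0.826 to 1.06). Ikbkg (chrX:74393233-74456792), the scaffold, stood at 405, 403, 448 and 395 in N-tg, at 382, 475, 449 and 455 in 5xFAD vehicle and at 408, 409, 441 and 448 in TPPU mice. Its fold was 1.06 (0.923 to 1.23) between the genotypes and 0.971 (0.842 to 1.12) with TPPU. For the 3 core kinase genes the 95% intervals of the fold between the genotypes ran no lower than 0.870 and no higher than 1.23 on the deposited scale. A median-centred scale gave log2 changes of -0.19 for Ikbkg, -0.30 for Ikbkb and -0.28 for Chuk. With TPPU the estimates of all 3 turned above 0 under that scale. Over the alternative fits the lowest adjusted p between the genotypes was 0.0501 for Chuk, 0.0516 for Ikbkb and 0.149 for Ikbkg by limma.

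Ikbke (chr1:131254600-131279601) encodes IKK-epsilon, an IKK-related kinase known for phosphorylating interferon regulatory factors, and was the member with the lowest counts. It stood at 24.4, 24.8, 21.5 and 21.9 in N-tg mice, at 30.3, 33.5, 36.4 and 42.9 in 5xFAD vehicle mice and at 21.3, 21.3, 10.9 and 25.7 in TPPU mice. The 5xFAD vehicle mice lay above all 8 other mice, and the N-tg and TPPU mice overlapped. The means were 23.2 ± 1.68, 35.8 ± 5.39 and 19.8 ± 6.28 (SD, n = 4 each). The fold was 1.51 between the genotypes (95% interval 1.07 to 2.14) with a log2 change of 0.60 (SE 0.23), unadjusted p = 0.0237 and adjusted p = 0.0967 by limma. With TPPU the log2 change was -0.87 (SE 0.23), 1.83-fold lower, with an unadjusted p of 0.0027 and an adjusted p of 0.134 by limma, the 14th smallest p of 695. Neither passed.

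The genotype estimate for Ikbke lay above 0 in each alternative fit run, but at 0.036 after quantile normalization. It passed the threshold in a fit of only the 2 groups (adjusted p = 0.0344) and without TPPU mouse 3, whose 10.9 widens the shared spread (adjusted p = 0.0193). The TPPU estimate ran from -1.01 to -0.62 over the alternatives and passed in none, with adjusted p between 0.0542 and 0.34. As whole counts the gene rested on 23 to 28 per N-tg mouse, 32 to 43 per 5xFAD vehicle mouse and 10 to 25 per TPPU mouse. The group sums, not scaled by the factor of each mouse, were 100 (95% Poisson interval 81.4 to 122), 141 (119 to 166) and 75 (59.0 to 94.0). These intervals cover counting error only. They hold only if the whole numbers are the raw probe counts, which the labels do not state. Where Y-linked counts were low, Uty reached 33.5, and each Ikbke value of N-tg and TPPU mice lay below that, as did 5xFAD vehicle mouse 1 (30.3), while mouse 2 (33.5) was level with it. The size of its change is therefore uncertain, and the part of background was not tested.

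Microglial markers are set beside Nfkb1 and Ikbke here, neither of which passed the threshold. The summed normalized count of 10 markers, all 10 of them above 0 in every mouse, was 5829 to 6881 in N-tg, 12409 to 22690 in 5xFAD vehicle and 6781 to 16163 in TPPU mice, and 8 of the 10 were called higher between the genotypes and 0 with TPPU. In bulk RNA, fewer cells of a type and less RNA per cell cannot be told apart. Among TPPU mice, mouse 2 had both the lowest Nfkb1 (334) and the lowest marker sum (6781), and mouse 3 both the highest Nfkb1 (547) and the highest sum (16163). Ikbke did not follow within that group, with 10.9 in mouse 3. The summed levels of 8 neuronal markers overlapped between the groups, at 59564 to 64698, 54407 to 65983 and 56447 to 70281 in the same order. Those of 4 astrocyte markers, of which 1 was called higher between the genotypes, were 15973 to 20519, 20138 to 28054 and 17334 to 22353. Those of 9 oligodendrocyte markers, of which 0 were called, were 68150 to 100280, 40569 to 78989 and 61562 to 96651. Of 8 T, B and NK cell markers 5 were below 20 normalized counts in all mice. The part of any of these cell types in the member values was not tested.

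**Figure D4:**
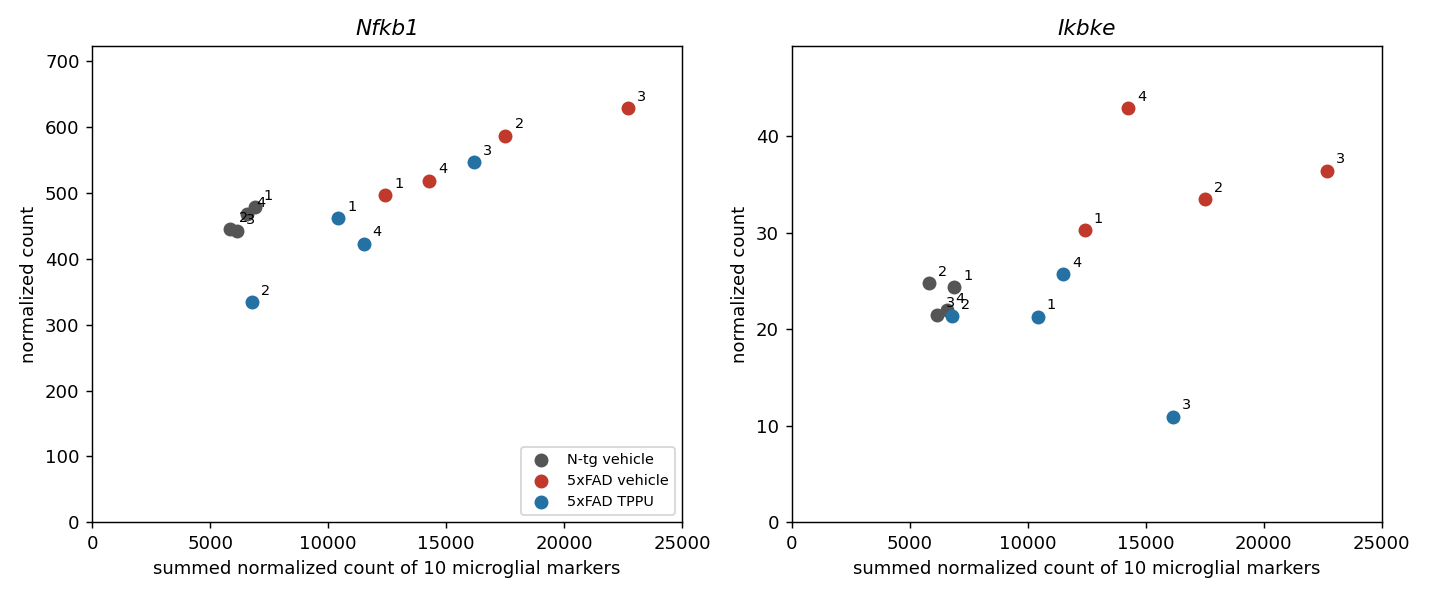
Normalized count of Nfkb1 (left) and Ikbke (right) against the summed normalized count of 10 microglial markers, 1 point per mouse with its number, all axes linear from 0. TPPU mouse 3, at a sum of 16163, lies at 547 for Nfkb1, the highest of its group, and at 10.9 for Ikbke, the lowest.

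The genes whose log2 values over the 12 mice were most like those of Nfkb1 were Mvp (Pearson r = 0.93), Sall1 (0.91), a microglial transcription factor, and Myc (0.89). Those most like Ikbke were Pik3cd (0.84), a leukocyte PI3 kinase subunit, Fancd2 (0.84) and Casp4 (0.83), an inflammatory caspase. These are descriptions over 12 mice that share the group differences and 1 scaling factor per mouse, picked from all tested genes. In N-tg, 5xFAD vehicle and TPPU mice, Pik3cd stood at 303 ± 19.1, 324 ± 14.1 and 292 ± 37.3 normalized counts (SD, n = 4 each). Its log2 change between the genotypes was 0.10 (adjusted p = 0.621 by limma). In the same order Casp4 stood at 20.7 ± 4.12, 41.0 ± 9.35 and 25.1 ± 7.18. Fancd2 stood at 17.9 ± 4.05, 29.8 ± 6.42 and 18.8 ± 4.56. The means were 133, 180 and 122 for Mvp, 631, 858 and 685 for Sall1 and 203, 230 and 189 for Myc. Where Y-linked counts were low, Uty stood at 15.2 to 33.5. Each Fancd2 mean and the N-tg and TPPU means of Casp4 lay within that range. The size of the Casp4 and Fancd2 changes is therefore uncertain.

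Around the members, the genes upstream and downstream of IKK were followed as 4 lists. Of 17 tested genes between the TNF, IL-1 and Toll-like receptors and IKK, 2 were called higher between the genotypes and 0 lower, beside a background of 18.7% of all tested genes, and the median log2 change was 0.23 beside 0.13 over all genes. The TNF receptor Tnfrsf1a rose 2.20-fold, from 238 ± 26.1 to 531 ± 116 normalized counts (adjusted p = 0.00227), and stood at 323 ± 85.4 with TPPU (SD, n = 4 each; log2 change -0.73, adjusted p = 0.135). Its call was kept in every alternative fit. Irak4, a kinase of the IL-1 and Toll-like receptor complex, stood at 76.5 ± 3.40, 138 ± 39.6 and 99.3 ± 34.9 and was called with an adjusted p of 0.045. That call ended in 9 of 12 fits without 1 mouse, all but those without 5xFAD vehicle mouse 1 or TPPU mouse 2 or 3 (adjusted p up to 0.144), and in 6 of 14 other settings, median centring among them (0.0734). With TPPU 0 of the 17 were called, and the median log2 change was -0.11. Tnfrsf1a passed with TPPU in 1 of the 12 fits without 1 mouse (adjusted p = 0.0354 by limma).

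In the non-canonical arm, 3 of 13 tested receptors, ligands and regulators of NIK were called higher between the genotypes and 0 lower (median log2 change 0.18), beside the same 18.7% and 0.13, and 0 were called with TPPU (median -0.06). Tnfsf13b, the B-cell ligand BAFF, was at 23.3 ± 4.50 in N-tg, 46.1 ± 12.9 in 5xFAD vehicle and 41.7 ± 11.1 in TPPU mice (SD, n = 4 each; genotype adjusted p = 0.016). The lymphotoxin beta receptor Ltbr stood at 109 ± 12.7, 174 ± 38.1 and 135 ± 31.9 (genotype adjusted p = 0.0336), and its ligand subunit Ltb at 22.6 ± 3.63, 34.4 ± 2.27 and 26.4 ± 5.22 (adjusted p = 0.0347 by limma). The call of Ltbr ended in 6 of 12 fits without 1 mouse, namely N-tg mouse 1, 2 or 3, 5xFAD vehicle mouse 2 or 3 or TPPU mouse 1 (highest adjusted p 0.105). That of Ltb ended in 7, without N-tg mouse 1, 3 or 4, 5xFAD vehicle mouse 1, 3 or 4 or TPPU mouse 1 (highest 0.103), and both ended under median centring and quantile normalization. The call of Ltb also ended with the replicate number as a block, scaled to the total count, without both mice with high Ttr and with voom weights. For Tnfsf13b the call ended without N-tg mouse 3 or 5xFAD vehicle mouse 3 (highest 0.054), and under quantile normalization. The N-tg means of Tnfsf13b (23.3) and Ltb (22.6) lay within the 15.2 to 33.5 at which Uty stood where Y-linked counts were low. The size of their changes is therefore uncertain. Tnfrsf4, Tnfsf4 and Tnfsf8 lay under the minimum. Of the list of other NF-kB proteins and feedback regulators only Socs3, a feedback inhibitor of cytokine signalling, was in the table, at 41.2 ± 6.66, 56.2 ± 16.0 and 39.5 ± 5.66 (genotype adjusted p = 0.24, not called).

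Of the tested genes known as NF-kB targets, 11 of 27 were called higher and 0 lower, beside 18.7% of all tested genes, and their median log2 change was 0.61 beside 0.13. Neither difference from the panel was tested. They were Ccl2, Ccl3, Ccl4, Ccl5, Cxcl10, Bcl2a1a, Irf1, Cd86, Tlr2, Csf1 and Fas. The chemokine Ccl3 rose 8.69-fold from 30.0 ± 4.00 to 288 ± 131 normalized counts and the survival gene Bcl2a1a 7.68-fold from 66.0 ± 15.3 to 543 ± 258 (SD, n = 4 each). The interferon-inducible chemokine Cxcl10 rose 4.40-fold and the receptor Tlr2 4.21-fold. All 4 calls were kept in each alternative fit that tested the gene. Where Y-linked counts were low, however, Uty stood at 15.2 to 33.5. The N-tg means of Ccl3 (30.0), Cxcl10 (15.8) and Tlr2 (19.1) lay within that range, as did those of Ccl4 (15.4), Ccl2 (29.5) and Fas (32.1). That of Ccl5 (12.2) lay below it. The size of these folds is therefore uncertain. The call of Irf1 ended in 9 of the 12 fits that leave 1 mouse out, all but those without N-tg mouse 1, 5xFAD vehicle mouse 2 or TPPU mouse 2. That of Fas ended in 3 (N-tg mouse 3 or 4, 5xFAD vehicle mouse 3, highest adjusted p 0.0572) and that of Ccl5 in 1 (N-tg mouse 3, 0.054), while Tnf and Ccl7 lay under the minimum. Irf1 and Fas were not called after median centring, nor were they, Ccl2, Ccl5 and Csf1 after quantile normalization. Without both mice with high Ttr, Irf1, Fas and Ccl5 were not called. Irf1 also lost its call with the replicate number as a block, in the fit of 2 groups, scaled to the total count and with voom weights.

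With TPPU 0 of the 27 targets were called, 3 had an unadjusted p under 0.05, all lower, and the median log2 change was -0.33. Over all genes 18.1% had such a p, nearly all lower, and the median was -0.12. The smallest p values belonged to Ccl5, at 34.4 ± 15.4 in 5xFAD vehicle and 14.2 ± 5.38 in TPPU mice (log2 change -1.17, adjusted p = 0.174), and Ccl2, at 56.5 ± 12.5 and 36.6 ± 9.32 (-0.62, adjusted p = 0.212; SD, n = 4 each). Ccl5 passed in 1 of the 12 fits without 1 mouse (adjusted p = 0.0437 by limma). Its TPPU mean lay below the 15.2 to 33.5 at which Uty stood where Y-linked counts were low. The size of the Ccl5 change is therefore uncertain. Many of the targets called are also transcribed in microglia, whose summed markers moved with them, and the part of microglial content in their changes was not tested. The members' median of 0.05 and the targets' median of 0.61 between the genotypes are given side by side as descriptions, and their difference was not tested.

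**Figure D5:**
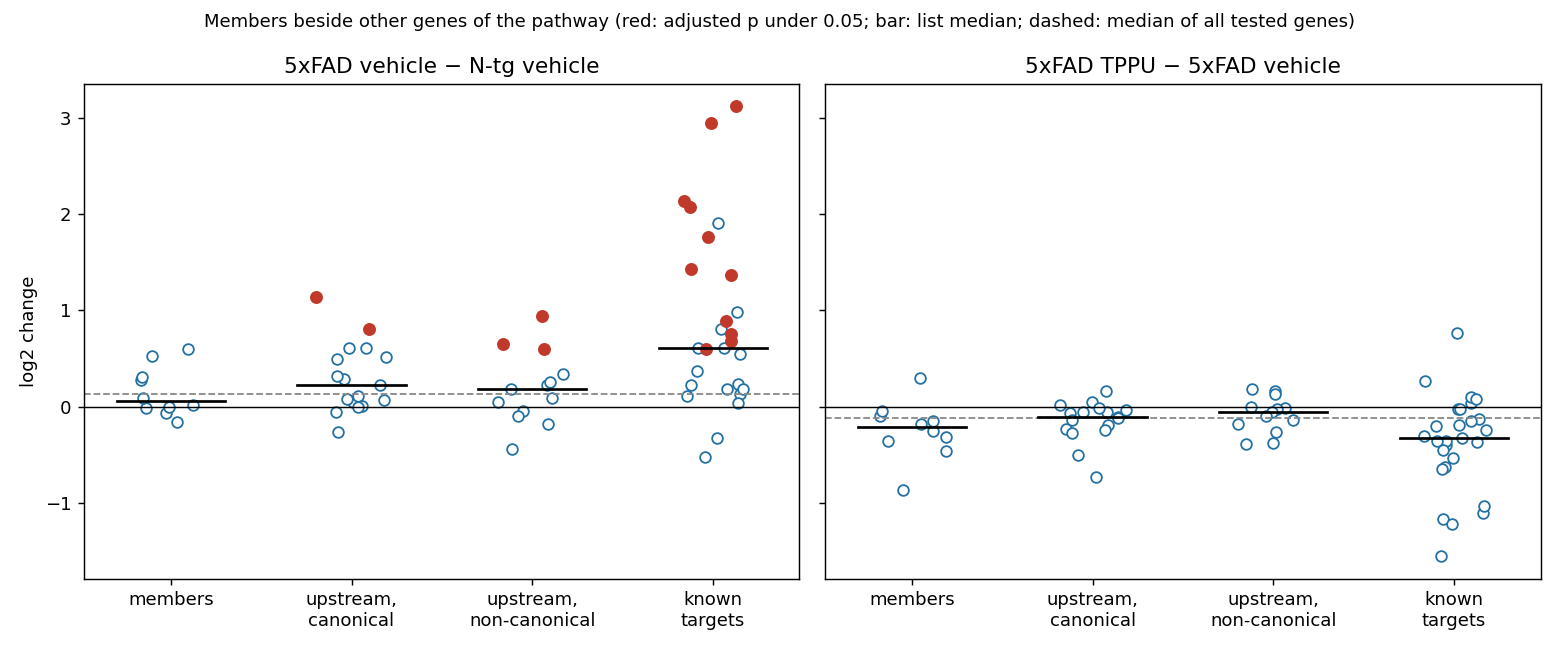
Log2 change (vertical axis) of the 10 members and of the tested genes of 3 other lists of the pathway, between the genotypes (left) and with TPPU (right). Filled red points have an adjusted p under 0.05 by limma, black bars are list medians and the dashed line is the median of all tested genes. Calls on the left number 0 of 10 members, 2 of 17 and 3 of 13 upstream genes and 11 of 27 targets, and none on the right.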

How the data were processed

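The authors deposited 1 table of signal values for 756 genes and 12 mice, on a linear scale. Per the labels, they are nCounter probe counts scaled to 10 housekeeping genes by geometric means. Not given in the sources used here were the software and any background subtraction. Each deposited value was a whole number times 1 factor per mouse (100% within 0.01 of a whole number), so these whole numbers were used as probe counts, which the labels do not state, whose totals per mouse, 1050334 to 1314362, set the counting precision.

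Log2 of the normalized count plus 1 was fitted for 695 genes with a mean of at least 20 (61 were left out), with all 3 groups in 1 linear model in limma 3.58.1 (R 4.3.3), 9 residual degrees of freedom and a variance trend. Calls were made at a Benjamini-Hochberg adjusted p under 0.05 over all tested genes, and every p in the text, unadjusted or adjusted, is limma's. Folds are on this log2 scale and understate changes of low genes. Whether mice of a group came from separate litters or cages is not given, so p-values measure the spread between these mice. The main fit did not pair mice by replicate number. Deviations of same-numbered mice correlated at -0.366 to 0.388 over 12 pairs. Differently numbered mice were not compared, so whether the numbers pair mice was not tested.

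The 10 members and the lists were chosen with earlier results of these data known. Named from each list were up to 4 called genes with the largest genotype change (where none passed, up to 2 with the smallest p) and up to 2 with the smallest p with TPPU, and, for the 2 members with the smallest p, the 3 genes of highest Pearson r. The remaining called genes, Uty, Kdm5d, Ttr and the Nfkb2 and Relb pairing were named after their values were seen. The fit was tested on simulated data. Alternatives were 2 pseudocounts, 2 filters, 3 scalings, other variance models, the replicate number as a block, fits of 2 groups, Y-linked status as a block, fits without mice with high Ttr or without each mouse in turn and, added after seeing the data, voom weights. Plots were made in Python 3.11.15 with matplotlib 3.10.9.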

Additional observations from a re-analysis of the deposited data

Results flagged for a closer look

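In 3 of the 30 sets of 4 mice formed by 10 genes and 3 groups, 1 mouse stood far from the other 3, by a gap divided by the range of the set that exceeded Dixon's 95% critical value for 4 samples. Chance flags about 1 in 20 such sets, and over all tested genes 5.32% of 2085 sets exceeded it. Relb stood at 180 normalized counts in 5xFAD vehicle mouse 1 and at 305 to 321 in the other mice of that group (ratio 0.887). Nfkbie stood at 52.0 in the same mouse and at 92.8 to 99.3 in the others (0.862). That mouse was 1 of the pair with high Ttr, and the part of this in both values was not tested. The other of the pair, N-tg mouse 4, stood at 365 for Relb, the highest of its group, and at 91.6 for Nfkbie. Chuk stood at 981 in N-tg mouse 2 and at 848 to 867 in the other N-tg mice (0.857), so that without this mouse its log2 change between the genotypes was 0.049.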

How the results depend on the processing

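The number of members called between the genotypes was 0, and became 2 after quantile normalization (Nfkbie and Relb, lower), 1 in a fit of only the 2 groups compared (Ikbke), and 0 to 1 over fits without 1 mouse (Nfkb2 without 5xFAD vehicle mouse 1, Ikbke without TPPU mouse 3). It was 0 in the other alternatives run, and 0 in all of them for both comparisons with TPPU mice. A minimum mean of 50 left Ikbke out. With the replicate number as a replicate block 0 members and 125 genes were called between the genotypes, and the block changed no member's call in any comparison, while it ended those of Ltb and Irf1 between the genotypes. The planned count tests of edgeR and DESeq2 were not run, because the whole numbers could not be established as raw counts. The fit with voom weights used the same whole numbers and carries the same limit. Over all genes, calls between the genotypes were 130 higher and 0 lower on the deposited scale, 102 and 88 after median centring and 80 and 104 after quantile normalization. They were 117 and 3 when scaled to the total count, and 115 and 3 with voom weights, which were added after seeing the data. With TPPU, calls over all genes were 39 lower without TPPU mouse 3 and 1 lower without 5xFAD vehicle mouse 2 or TPPU mouse 2. From N-tg to TPPU mice they were 59 higher and 1 lower without TPPU mouse 2. Both comparisons had 0 calls in the main fit and the other alternatives.

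The direction of members depended on the scale, and the cause was not tested. After median centring the log2 change between the genotypes was -0.0084 for Nfkb1, -0.26 for Rela and -0.19 for Ikbkg. With TPPU it was 0.026 for Rela, 0.049 for Chuk, 0.11 for Ikbkb and 0.16 for Ikbkg, and from N-tg to TPPU mice -0.017 for Nfkb2, -0.079 for Nfkbia and -0.035 for Ikbkg. After quantile normalization the genotype change was -0.0075 for Nfkb1, -0.16 for Nfkb2, -0.28 for Rela, -0.12 for Nfkbia and -0.21 for Ikbkg, and -0.30 for Socs3, which is not a member. With TPPU it was 0.071 for Rela, 0.16 for Nfkbie, 0.0081 for Chuk, 0.069 for Ikbkb and 0.17 for Ikbkg, and from N-tg to TPPU mice -0.21 for Nfkb2, -0.15 for Nfkbia and -0.043 for Ikbkg. Scaled to the total count, Rela was at -0.042 between the genotypes and Nfkbia at -0.040 from N-tg to TPPU mice, and with voom weights they were at -0.045 and -0.037. Without both mice with high Ttr the genotype change was -0.020 for Rela, 0.13 for Relb, 0.18 for Nfkbie, 0.044 for Chuk and 0.029 for Ikbkb, and that of Nfkbia with TPPU was 0.013.

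Over the 12 fits without 1 mouse, the genotype change ran from -0.017 to 0.048 for Rela, -0.24 to 0.042 for Relb, -0.0099 to 0.50 for Nfkbia and -0.19 to 0.15 for Nfkbie. It ran from -0.036 to 0.054 for Chuk and -0.063 to 0.019 for Ikbkb. With TPPU Nfkbia ran from -0.49 to 0.013, and from N-tg to TPPU mice Nfkb1 ran from -0.19 to 0.048, Nfkb2 from -0.063 to 0.22 and Nfkbia from -0.13 to 0.090. The low counts of Ikbke limit its precision.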
